A study of Mus musculus with 6 samples.

Results

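Monocyte marker genes are 8 genes that are read as signs of monocytes in mouse blood: Csf1r, Mpeg1, Ccr2, Cx3cr1, F13a1, Fn1, Ms4a6c and Ly86. They were taken by symbol from a fixed list, all 8 were found among the 35853 genes of the deposited tables, and they were picked with values of the comparison below already known, so their differences between the groups are given as descriptions without a test. The libraries were made from blood neutrophils of WT BALB/C mice 4 weeks after cells of 4T1, a mammary carcinoma line of the mouse, had been implanted orthotopically. Ly6G-positive cells had been sorted by surface Ly6C into Ly6C-high cells and Ly6C-low cells, and each gave 3 libraries. Every library came from tumour-bearing mice. Separate mice are not named in the labels as the source of replicates, so the p-values reflect only how far these libraries scatter, which may be technical.

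Blood monocytes of the mouse form a classical subset with much surface Ly6C, which depends on the chemokine receptor CCR2 to leave the bone marrow, and a non-classical subset with little Ly6C, which carries much CX3CR1 and patrols the vessel wall. Both carry the growth factor receptor encoded by Csf1r. Monocytes and neutrophils descend from shared progenitors, and transcripts of several genes used as monocyte markers are also found in neutrophils. Because classical monocytes carry Ly6C, the question put to these libraries was whether the 8 genes moved together between the Ly6C-high and the Ly6C-low cells. A marker gene that neutrophils also transcribe need not follow monocytes carried along in a sort. The directions of the 8 genes therefore do not decide on such admixture, which was not tested.

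The estimated counts summed to between 17192372 and 20973623 per library, and 11406 genes passed a filter on low counts and were tested. Of these, 4 passed an adjusted p of 0.05 with edgeR's quasi-likelihood test (0.0351%): Ly6c1 and Ly6c2, genes of the antigen used to separate the cells, which were higher in the Ly6C-high cells, and Alox15 and Fam49a, which were lower. Alox15 needed its Ly6C-low libraries to pass that filter. The library of Ly6C-low replicate 3 was unlike the rest, with a first principal component of 38.02 where the 5 others lay between -19.65 and 3.91. Levels in CPM are counts scaled by library size with edgeR's TMM factors. Ly6g, the gene of the antigen of the sort, had 757, 875 and 708 CPM in Ly6C-high and 610, 652 and 397 CPM in Ly6C-low replicates 1, 2 and 3 (log2 fold change 0.50, adjusted p 0.278, edgeR). Neutrophil transcripts were abundant: the 16 neutrophil genes examined, led by S100a9 and S100a8, summed to 402400 to 404400 TPM, a level scaled by transcript length and library, in Ly6C-high libraries and to 373700 to 388200 TPM in Ly6C-low libraries.

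The 8 genes did not move in 1 direction. By mean CPM, 6 were higher in the Ly6C-high cells, namely Ccr2, Ms4a6c, Cx3cr1, F13a1, Fn1 and Ly86, and 2 were lower, Csf1r and Mpeg1. The groups did not overlap in 4 genes that were higher and 2 that were lower, beside 10.3% and 10.9% of all genes tested in those directions and 21.2% in either. Since these genes were picked on this comparison, nothing is read from those counts. The split followed the level: the group means of Csf1r and Mpeg1 lay between 97.0 and 135 TPM, while each of the 6 others had a mean under 10 TPM. Of the 8 genes, 7 passed the filter on low counts, and Ly86 did not pass. Cx3cr1 passed through the Ly6C-high libraries alone. Fn1 also needed them, with 3 Ly6C-high libraries and 1 Ly6C-low library at the filter's cutoff. Without Ly6C-low replicate 3, the log2 fold change was -0.25 for Csf1r, -0.32 for Mpeg1, 0.45 for Ccr2, 1.26 for Ms4a6c, 2.48 for Cx3cr1, 0.60 for F13a1 and 1.65 for Fn1, the same direction in each as with all libraries.

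**Figure D1:**
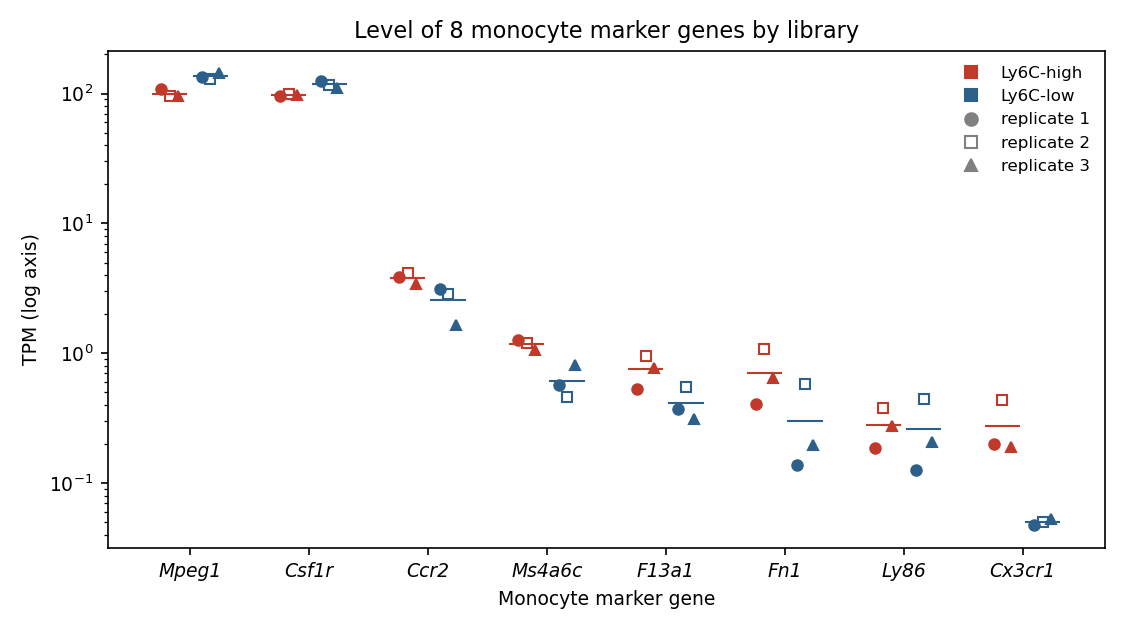
Level of each of the 8 genes in TPM on a log axis, 1 point per library, Ly6C-high in red left of Ly6C-low in blue, with horizontal lines at the group means. Mpeg1 and Csf1r have group means between 97.0 and 135 TPM and are lower in the Ly6C-high libraries, whereas the 6 genes under 10 TPM have higher means there.

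To show the regions from which the best-counted genes of each direction are transcribed, the 250 bases before the transcription start of Mpeg1 and Ccr2 are printed, with those of F13a1, from the RefSeq promoter table on build GRCm38.p6. Windows of 6 of the 8 genes were read from it. Capitals mark GAGGAA, the core word of sites of PU.1, the factor encoded by Spi1, searched on both strands. It lay in 1 of the 7 windows read for these 6 genes, that of the first F13a1 start printed here, and in 23.4% of all such windows. The window of the second F13a1 start did not hold it. The printed windows did not hold TTGCNNAA, a word of C/EBP sites, which was in 9.57% of all windows. A match or its absence describes these letters alone. The windows are chr19:12460520-12460769 on the plus strand, chr9:124101933-124102182 on the plus strand and chr13:37050245-37050494 on the minus strand, each written 5′ to 3′.
Mpeg1: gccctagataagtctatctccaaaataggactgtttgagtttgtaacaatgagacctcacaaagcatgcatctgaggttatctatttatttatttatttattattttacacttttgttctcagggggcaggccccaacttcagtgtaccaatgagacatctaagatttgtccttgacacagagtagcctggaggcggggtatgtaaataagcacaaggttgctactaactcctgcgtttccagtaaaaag
Ccr2: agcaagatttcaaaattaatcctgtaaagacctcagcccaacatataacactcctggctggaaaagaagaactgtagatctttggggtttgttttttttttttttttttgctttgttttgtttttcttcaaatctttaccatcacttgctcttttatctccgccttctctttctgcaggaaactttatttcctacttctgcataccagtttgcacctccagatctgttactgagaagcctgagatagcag
F13a1: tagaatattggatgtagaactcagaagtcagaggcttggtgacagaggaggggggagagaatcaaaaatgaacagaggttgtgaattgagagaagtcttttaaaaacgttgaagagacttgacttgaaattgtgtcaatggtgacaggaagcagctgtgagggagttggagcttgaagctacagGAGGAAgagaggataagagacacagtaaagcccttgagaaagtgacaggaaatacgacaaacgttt

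Csf1r encodes the receptor for the growth factors CSF1 and IL-34, which monocytes and macrophages carry. It measured 342, 343 and 340 CPM in Ly6C-high replicates 1, 2 and 3, against 423, 388 and 354 CPM in Ly6C-low replicates 1, 2 and 3. The 3 Ly6C-high libraries lay close together and below the lowest Ly6C-low library. On the scale of TPM, which accounts for transcript length, the level averaged 97.0 ± 1.85 TPM in Ly6C-high cells and 117 ± 7.54 TPM in Ly6C-low cells (SD, n = 3 each), and the log2 fold change was -0.18 (SE 0.09). Csf1r ranked 945th by mean TPM among the 11406 genes tested. It was no trace transcript in either group. Nearly all of its counts, 97.0%, were assigned to Csf1r-201, a coding transcript of 3870 bases that shares 0 words of 31 bases with other genes. Other variants of the gene share 843 such words with Hmgxb3.

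Mpeg1 encodes perforin-2, a pore-forming protein that phagocytes use against ingested bacteria. It measured 437, 378 and 379 CPM in Ly6C-high replicates 1, 2 and 3, against 514, 483 and 522 CPM in Ly6C-low replicates 1, 2 and 3. The groups did not overlap, and the lowest Ly6C-low library lay above the highest Ly6C-high library. Its level averaged 99.4 ± 7.14 TPM in Ly6C-high cells and 135 ± 7.27 TPM in Ly6C-low cells (SD, n = 3 each), and the log2 fold change was -0.35 (SE 0.10). It ranked 868th of the genes tested, and all of its counts came from a single coding transcript. The count of Mpeg1 per count of Csf1r was 1.28, 1.10 and 1.11 in Ly6C-high and 1.21, 1.25 and 1.48 in Ly6C-low replicates 1, 2 and 3, so the groups overlapped in the proportion of the pair.

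Ccr2, the receptor for CCL2 that classical monocytes need to enter the blood, was the best counted of the 6 genes at low level. It measured 11.6, 11.7 and 10.3 CPM in Ly6C-high replicates 1, 2 and 3, from 219, 220 and 211 estimated counts, against 8.68, 7.77 and 4.46 CPM in Ly6C-low replicates 1, 2 and 3, from 174, 148 and 84.0 estimated counts. Each Ly6C-high library lay above each Ly6C-low library, and Ly6C-low replicate 3 held the lowest value. The log2 fold change was 0.68 (SE 0.21). Its mean level was 3.82 ± 0.37 TPM in Ly6C-high cells and 2.56 ± 0.79 TPM in Ly6C-low cells (SD, n = 3 each). Of the 6745 words of 31 bases in its transcripts, 232 also occur in transcripts of other genes, so the assignment of a small part of its reads is uncertain.

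Ms4a6c encodes a membrane-spanning protein of the MS4A family that is found in monocytes and macrophages. It measured 2.00, 1.87 and 1.64 CPM in Ly6C-high replicates 1, 2 and 3, against 0.851, 0.681 and 1.15 CPM in Ly6C-low replicates 1, 2 and 3. The groups did not overlap, and here Ly6C-low replicate 3, the lowest library for Ccr2, was the highest of its group. The log2 fold change was 1.03 (SE 0.31), from 106 estimated counts in all Ly6C-high libraries and 52 in all Ly6C-low libraries. Its close relative Ms4a6b shares 281 of its 2020 words of 31 bases, so the division of reads between the paralogs is uncertain. Ms4a6b itself measured 1.24 ± 0.30 CPM in Ly6C-high cells and 1.13 ± 0.20 CPM in Ly6C-low cells (SD, n = 3 each), with a log2 fold change of 0.14 (edgeR, adjusted p 0.875). On the TPM scale its means lay the other way, at 0.685 TPM in Ly6C-high and 1.22 TPM in Ly6C-low cells.

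Cx3cr1, the fractalkine receptor that marks non-classical monocytes most strongly, was near the limit of counting. It had 13.1, 24.5 and 13.3 estimated counts in Ly6C-high replicates 1, 2 and 3, against 3.12, 3.08 and 3.12 in Ly6C-low replicates 1, 2 and 3. The groups did not overlap, and every Ly6C-low library held only about 3 counts. The ratio of the summed counts, scaled as for CPM, was 5.66, Ly6C-high over Ly6C-low, with an exact 95% interval from 2.76 to 13.1 that covers counting error only. Its mean level was 0.277 ± 0.142 TPM in Ly6C-high cells and 0.0501 ± 0.0026 TPM in Ly6C-low cells (SD, n = 3 each). Without Ly6C-high replicate 2 the fitted log2 fold change was 2.04, against 2.46 with all libraries.

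F13a1 encodes the A chain of clotting factor XIII and is transcribed in classical monocytes and in the platelet lineage. It measured 1.85, 3.21 and 1.86 CPM in Ly6C-high replicates 1, 2 and 3, against 1.22, 1.84 and 0.939 CPM in Ly6C-low replicates 1, 2 and 3. On the CPM scale Ly6C-high replicate 1 and Ly6C-low replicate 2 nearly touched, and on the TPM scale they overlapped, at 0.529 and 0.548 TPM. The log2 fold change was 0.79 (SE 0.34). Of the 14 platelet genes examined, which include Pf4 and Ppbp, 10 were tested, 0 were called by edgeR or DESeq2 and 1 was lower at an unadjusted p under 0.05, and their summed level was 27.8, 32.6 and 18.3 TPM in Ly6C-high and 30.3, 39.7 and 20.2 TPM in Ly6C-low replicates 1, 2 and 3. Replicate 2 was the highest of its group in both groups, as it was for F13a1. The part of platelets in the F13a1 level was not tested.

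Fn1 encodes fibronectin, a matrix protein also made by monocytes, macrophages and stromal cells. It had 20.7, 94.3 and 13.7 estimated counts in Ly6C-high replicates 1, 2 and 3, against 9.81, 18.4 and 7.46 in Ly6C-low replicates 1, 2 and 3. A single library, Ly6C-high replicate 2, held more than all others together, and the groups overlapped. The log2 fold change was 1.89 (SE 0.85), and 0.56 without Ly6C-high replicate 2. Fn1 needed its Ly6C-high libraries to pass the filter on low counts. The extra counts of that library were on coding transcripts, which took 5.73, 73.6 and 6.74 counts in Ly6C-high replicates 1, 2 and 3, against 4.06, 4.55 and 2.00 in Ly6C-low replicates 1, 2 and 3. The transcript with the most Fn1 counts over all libraries, Fn1-215, is annotated as a retained intron, a form that codes for no full fibronectin. Outside Ly6C-high replicate 2 the coding transcripts held between 24.7% and 49.3% of the Fn1 counts, and in that library they held 78.1%.

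Ly86 encodes MD-1, the partner of the receptor CD180 on B cells and myeloid cells. It had 3.15, 6.17 and 4.86 estimated counts in Ly6C-high replicates 1, 2 and 3, against 2.13, 6.98 and 3.14 in Ly6C-low replicates 1, 2 and 3. The groups overlapped throughout. The ratio of the summed counts, Ly6C-high over Ly6C-low, was 1.17 with an exact 95% counting interval from 0.50 to 2.76. A level 2-fold higher in Ly6C-high cells lay inside that interval, and one 2-fold lower lay at its edge. The gene of its partner, Cd180, measured 0.42 ± 0.30 CPM in Ly6C-high cells and 0.36 ± 0.21 CPM in Ly6C-low cells (SD, n = 3 each) and was not tested.

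Read across libraries, the 6 genes at low level shared some but not all of their variation. Their summed level was 6.46, 8.20 and 6.37 TPM in Ly6C-high replicates 1, 2 and 3, against 4.40, 4.95 and 3.23 TPM in Ly6C-low replicates 1, 2 and 3. In Ly6C-high replicate 2, all 6 lay above the mean of their group on the CPM scale and 5 were the highest of the group. In Ly6C-high replicate 3, 0 of the 6 lay above that mean, and in Ly6C-low replicate 2, 5 did. In bulk samples more cells of a type and more of its RNA per cell cannot be told apart. Csf1r and Mpeg1 made up between 95.9% and 96.9% of the summed TPM of the 8 genes in Ly6C-high libraries and between 98.0% and 98.7% in Ly6C-low libraries, so the sum of all 8 followed them and averaged 203 ± 5.29 TPM in Ly6C-high cells and 257 ± 6.68 TPM in Ly6C-low cells (SD, n = 3 each).

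**Figure D2:**
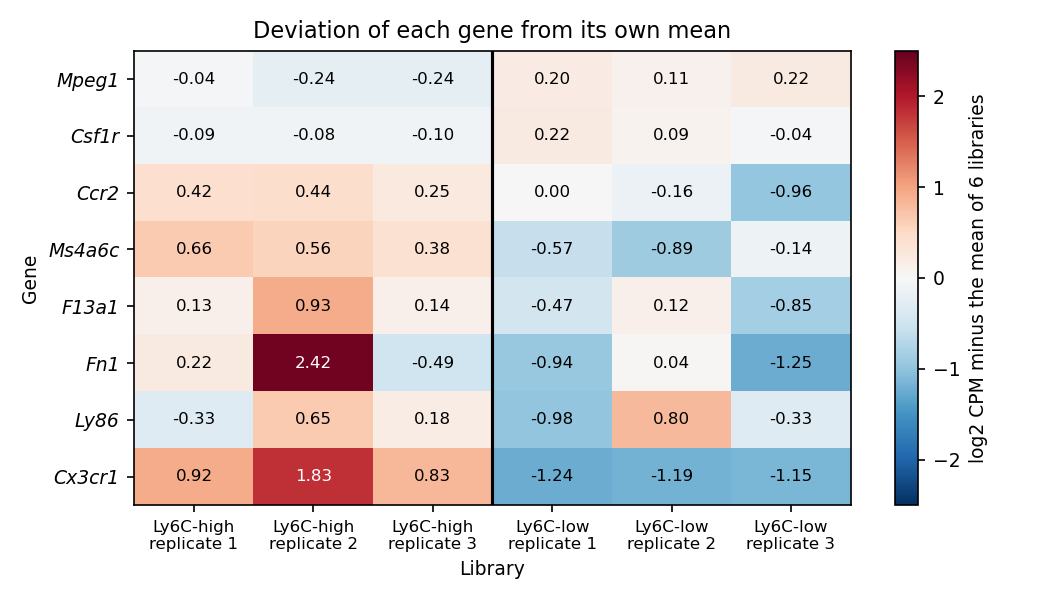
Deviation of log2 CPM of each gene from its own mean over the 6 libraries, with Ly6C-high libraries left of the vertical line and Ly6C-low libraries right of it. Csf1r and Mpeg1 are below 0 in all 3 Ly6C-high libraries, Ccr2, Ms4a6c, F13a1 and Cx3cr1 are above 0 there, and Fn1 reaches 2.42 in Ly6C-high replicate 2 alone.

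The proportions of the genes to each other are given by library as a description. The genes were picked on this comparison, so nothing is read from a separation of the groups in them. For each count of Ccr2 there were 29.5, 29.3 and 33.0 counts of Csf1r in Ly6C-high replicates 1, 2 and 3, against 48.8, 49.9 and 79.4 in Ly6C-low replicates 1, 2 and 3. The groups did not overlap in this ratio, which was set once Csf1r was lower and Ccr2 higher, each without overlap. The count of Cx3cr1 per count of Ccr2 was 0.06, 0.11 and 0.063 in Ly6C-high and 0.018, 0.021 and 0.037 in Ly6C-low replicates 1, 2 and 3, again without overlap, although the Ly6C-low values rest on about 3 counts a library. F13a1 per Ccr2 overlapped between the groups, at 0.16, 0.27 and 0.18 in Ly6C-high and 0.14, 0.24 and 0.21 in Ly6C-low replicates 1, 2 and 3. Ms4a6c per Ccr2 was 0.17, 0.16 and 0.16 in Ly6C-high libraries, and in Ly6C-low libraries it was 0.098 and 0.088 in replicates 1 and 2 and 0.26 in replicate 3. Fn1 per Ccr2 was 0.43 in Ly6C-high replicate 2 and at most 0.12 in any other library.

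**Figure D3:**
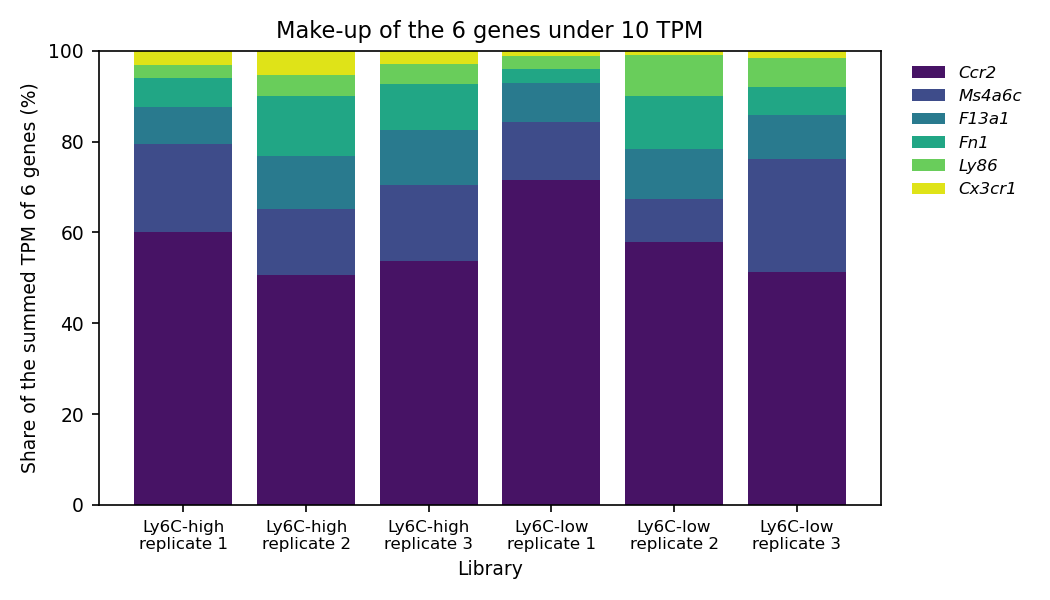
Share of each of the 6 genes in their summed TPM, by library, as stacked bars from 0 to 100%. Ccr2 held 60.0%, 50.6% and 53.7% in Ly6C-high replicates 1, 2 and 3 and 71.5%, 57.9% and 51.2% in Ly6C-low replicates 1, 2 and 3, while the share of Cx3cr1 was between 3.00% and 5.37% in Ly6C-high libraries and between 1.01% and 1.64% in Ly6C-low libraries.

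The transcript variants behind Ccr2, F13a1 and Cx3cr1 also varied by library. Of the Ccr2 counts 54.0% were on Ccr2-202 and 28.1% on Ccr2-201. The count of Ccr2-201 was 89.1, 89.1 and 4.71 in Ly6C-high replicates 1, 2 and 3, against 47.0, 44.9 and 21.6 in Ly6C-low replicates 1, 2 and 3, and Ccr2-202 had 162 counts in Ly6C-high replicate 3. In the Ly6C-high libraries the Ccr2 total was close to level while its division was not. In Ly6C-low replicate 3 both variants and the total were low. F13a1 counts were on F13a1-201 in Ly6C-high replicate 2 and Ly6C-low replicate 2, at 56.2 and 33.7, and on F13a1-202 in Ly6C-high replicate 3 and Ly6C-low replicate 1, at 27.6 and 21.9. Of the Cx3cr1 counts in Ly6C-high replicate 2, 18.1 were on Cx3cr1-202, which had 0 in every other library, and 6.46 on Cx3cr1-201, which had 13.1 in Ly6C-high replicate 1 and 13.3 in Ly6C-high replicate 3. Variants of a gene share most of their sequence, so these divisions are uncertain and gene totals were used throughout.

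Other genes of the monocyte programme, 77 in 4 lists, spread to both sides. Of the 77, 63 were tested, 39 had a log2 fold change above 0 and 24 below it, where 49.2% of all genes tested lay above 0. Their median was 0.07, beside 0.0 for all genes tested. With edgeR 0 passed the adjusted threshold, and 14 were higher and 3 lower at an unadjusted p under 0.05, beside 6.92% and 7.34% of all genes tested (14.3% in either direction). That imbalance was absent with scaling by library size alone, at 8 higher and 8 lower. That scaling moved the median of all genes to -0.11 on the log2 scale. Each other setting kept more higher than lower, such as 15 and 7 with the replicate number as a block and 19 and 5 with no filter. Without Ly6C-high replicate 2 there were 6 higher and 1 lower. With any other library left out 9 to 13 were higher and 1 to 4 lower. DESeq2 called 2, Lyz2 and Mgst1, both higher, beside 1.1% of all genes, and limma voom called 0, beside 0.0263%.

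The list of genes shared by monocyte subsets held 19 tested genes with a median log2 fold change of 0.08, which was -0.03 without Ly6C-low replicate 3, 0.21 without Ly6C-low replicate 1 and -0.02 with library size alone. Its most abundant members, Lst1 and Itgam, which encodes CD11b, had log2 fold changes of -0.16 and 0.33, and the largest changes were 0.43 for Cybb, part of the phagocyte NADPH oxidase, and 0.37 for Ms4a6d. Neutrophils also express many of these genes, and the list summed to 3366 to 3600 TPM in Ly6C-high libraries and 3135 to 3790 TPM in Ly6C-low libraries. The 17 tested genes of the classical list had a median of 0.15, with 14 above 0. Lyz2, which encodes lysozyme, had a log2 fold change of 0.58 with an adjusted p of 0.243, Hp, which encodes haptoglobin, one of 0.15 with an adjusted p of 0.564, and Thbs1, a thrombospondin, one of 0.61 with an adjusted p of 0.643, all from edgeR's quasi-likelihood test. Vcan, which encodes the proteoglycan versican of classical monocytes, measured 1.47 ± 0.27 CPM in Ly6C-high cells and 1.20 ± 0.30 CPM in Ly6C-low cells (SD, n = 3 each). In TPM the means of Vcan lay the other way, at 0.168 in Ly6C-high and 0.271 in Ly6C-low cells.

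The 16 tested genes of the non-classical list had a median log2 fold change of -0.08, with 7 above 0 and 9 below, and the median was 0.09 without Ly6C-high replicate 3 and -0.26 without Ly6C-high replicate 2. Ace, which encodes the angiotensin-converting enzyme, had the largest fold change of the list. It measured 1.43, 1.76 and 0.637 CPM in Ly6C-high replicates 1, 2 and 3, against 0.399, 0.314 and 0.159 CPM in Ly6C-low replicates 1, 2 and 3, without overlap. Its log2 fold change was 2.09 (SE 0.51), and it did not pass edgeR's quasi-likelihood test after adjustment over all genes (adjusted p 0.189). Each Ly6C-low value lay below the filter's cutoff of 0.508 CPM, so Ace was tested through the Ly6C-high libraries alone. Hes1, a repressor in Notch signalling, had a log2 fold change of -0.85 (edgeR, adjusted p 0.392), and the abundant genes Cd9 and Itgal had values of 0.31 and 0.04. Nr4a1, the nuclear receptor on which non-classical monocytes depend, measured 26.5 ± 10.2 CPM in Ly6C-high cells and 43.3 ± 31.9 CPM in Ly6C-low cells (SD, n = 3 each).

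Regulators of the monocyte lineage had a median log2 fold change of 0.01 over 11 tested genes, which was -0.13 without Ly6C-low replicate 3. Irf8, which directs monocyte fate, was barely detected, at 0.32 ± 0.28 CPM in Ly6C-high cells and 0.19 ± 0.07 CPM in Ly6C-low cells (SD, n = 3 each). Spi1, which encodes PU.1 and acts in both lineages, had 777 ± 28.2 CPM in Ly6C-high and 719 ± 60.9 CPM in Ly6C-low cells. In TPM its means were 803.0 in Ly6C-high and 820.5 in Ly6C-low cells. The largest changes of the list were -0.74 for Tcf7l2, a factor of Wnt signalling (adjusted p 0.232, edgeR), and -0.69 for Egr1, an immediate early gene (adjusted p 0.766, edgeR), which varied between 214 and 991 CPM within the Ly6C-high libraries.

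**Figure D4:**
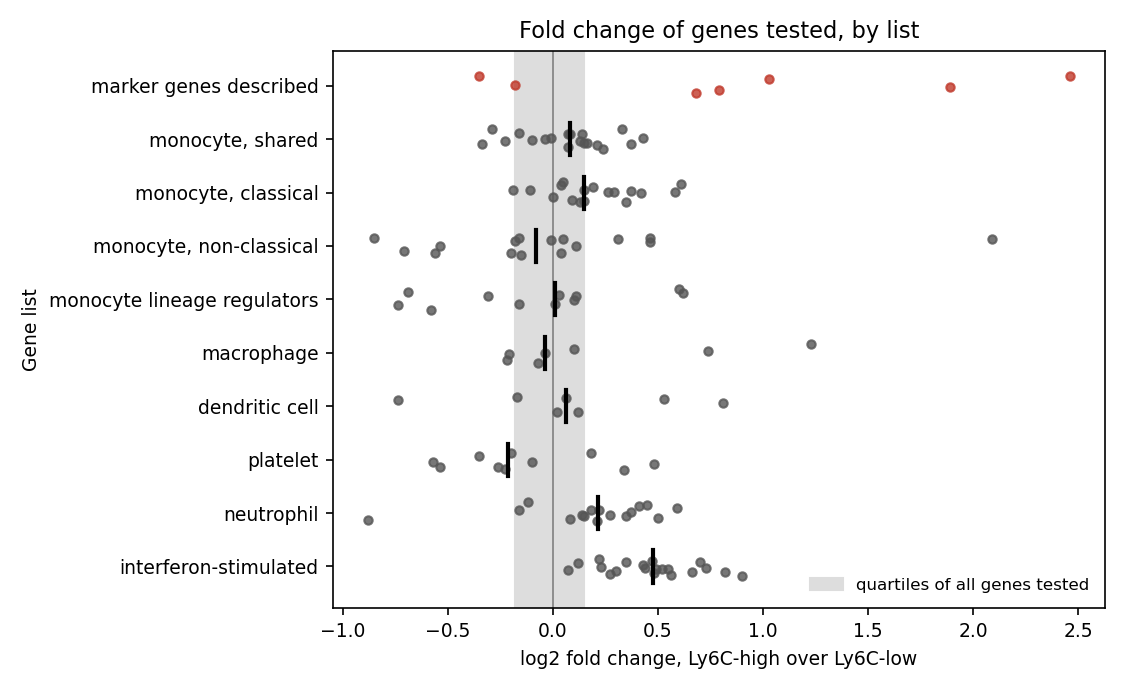
Log2 fold change, Ly6C-high over Ly6C-low, of each tested gene of 10 lists, with the marker genes described here in red, list medians as black bars and the quartiles of all genes tested, -0.18 and 0.15, as a grey band. Of the 7 tested marker genes 5 lie above the band and Mpeg1 below it, and the medians of the 4 monocyte lists, between -0.08 and 0.15, lie within it or at its edge.

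Within the 4 monocyte lists, genes at trace level were also described by themselves, a division made after their values were seen. Of the 24 genes with a mean under 1 TPM, 17 had a higher mean CPM in Ly6C-high cells and 7 a lower one. The groups did not overlap in 6 that were higher and 1 that was lower. The matching shares of all genes at such levels were not computed, so nothing is read from these numbers. Those higher included Ace, Ms4a4a and Ms4a4c, the last 2 relatives of Ms4a6c, and Tmem176a and Tmem176b, a pair of membrane protein genes. Tmem176a had 6, 7 and 5 counts in Ly6C-high replicates 1, 2 and 3, against 0, 0 and 1 in Ly6C-low replicates 1, 2 and 3. Tmem176b had 3, 9 and 6 counts in the Ly6C-high libraries, against 2, 1 and 1 in the Ly6C-low libraries. Ms4a4a had 8, 9 and 4 counts in the Ly6C-high libraries, against 1, 1 and 3 in the Ly6C-low libraries. Tmem176a, Tmem176b and Ms4a4a each rest on under 10 counts a library. Ly6C-high replicate 2 was the highest of its group in 15 of the 24 genes, as it was for 5 of the 6 marker genes at low level. The summed CPM of the 24 was 16.1, 18.5 and 13.0 in Ly6C-high replicates 1, 2 and 3, against 12.9, 13.9 and 12.6 in Ly6C-low replicates 1, 2 and 3.

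The ligands and partners of the 8 gene products were mostly low. Of the CCR2 ligands, Ccl7, Ccl8 and Ccl12 had no counts in any library, and Ccl2 measured 0.64 ± 0.09 CPM in Ly6C-high cells and 1.05 ± 0.22 CPM in Ly6C-low cells (SD, n = 3 each), with a log2 fold change of -0.72 (edgeR, adjusted p 0.392). Csf1, a ligand of the receptor encoded by Csf1r, was well expressed, at 127 ± 19.3 CPM in Ly6C-high and 153 ± 49.6 CPM in Ly6C-low cells (log2 fold change -0.27, adjusted p 0.690, edgeR, n = 3 each). Among fibronectin receptor chains, Itga4 had a log2 fold change of -0.20 and Itgb3 one of 0.34. Of the 15 partner genes 7 were tested, with a median of -0.20, 6 of them below 0, and 0 passed the threshold with edgeR, DESeq2 or voom (1 lower at an unadjusted p under 0.05).

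Markers of other cells were compared beside these values. Of 20 macrophage genes 7 were tested, with a median log2 fold change of -0.04, and the complement genes C1qa, C1qb and C1qc as well as Marco and Cd5l had no counts in any library, while Slc40a1 and Hmox1 made up nearly all of the summed 677 to 746 TPM in Ly6C-high libraries and 688 to 853 TPM in Ly6C-low libraries. Of 16 dendritic cell genes 7 were tested, with a median of 0.06, and the sum was 19.7, 24.3 and 21.5 TPM in Ly6C-high and 20.9, 25.3 and 29.1 TPM in Ly6C-low replicates 1, 2 and 3. Of 12 early progenitor genes 9 were tested, with a median of -0.21 and sums of 144 to 163 TPM in Ly6C-high and 154 to 184 TPM in Ly6C-low libraries. The median was -0.21 for platelet genes, 0.25 for 9 B cell genes and -0.19 for 9 erythroid genes. T and NK cell genes had 3 of 16 tested, with a median of 0.41 and a sum of 32.3, 52.3 and 44.8 TPM in Ly6C-high and 28.7, 40.1 and 36.2 TPM in Ly6C-low replicates 1, 2 and 3, most of it Cd3d. In Ly6C-high replicate 2 that sum was the highest of the group, as were those of the platelet, dendritic cell and B cell lists, the B cell sum being 12.3, 14.8 and 11.8 TPM in Ly6C-high and 11.7, 16.6 and 12.1 TPM in Ly6C-low replicates 1, 2 and 3. The eosinophil sum was also highest there, and the macrophage, erythroid, early progenitor, basophil, and carcinoma and stroma sums were not. The part of any of these cells in the values of Fn1, F13a1 and Cx3cr1 was not tested. Eosinophil and basophil genes had medians of -0.56 over 7 genes and -1.60 over 9 genes, below the range of the monocyte lists, with Alox15 called lower. Keratin genes Krt8, Krt18, Krt14 and Krt19 of the carcinoma and stroma list and its genes Cldn4, Col3a1 and Cdh5 had no counts in any library, and the 4 tested genes of that list had a median of 0.22. The 16 neutrophil genes had a median of 0.22 and the 20 interferon-stimulated genes one of 0.47. All 20 of the latter lay above 0, beside 49.2% of all genes tested. DESeq2 called 5 interferon-stimulated genes, 1 neutrophil gene, 1 dendritic cell gene and 1 eosinophil gene, beside 1.1% of all genes. Several of the list medians turned direction when 1 library was left out. The T and NK cell median was -0.32 without Ly6C-low replicate 1, and the B cell median -0.02 without the same library. The platelet median was 0.04 without Ly6C-high replicate 3 or Ly6C-low replicate 2, the erythroid one 0.19 without Ly6C-high replicate 3, the carcinoma and stroma one -0.04 without Ly6C-low replicate 3, and the macrophage one reached 0.12 without Ly6C-low replicate 2. The basophil median was -0.95 without Ly6C-low replicate 3 and the eosinophil median -0.89 without Ly6C-high replicate 1. Without Ly6C-low replicate 2 the dendritic cell median was 0.35 and that of the partners -0.06, and without Ly6C-high replicate 3 the early progenitor median was -0.07.

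The genes most like the mean profile of the 7 tested marker genes over the 6 libraries were sought among 7074 other coding genes with a mean of at least 5 CPM, by the root mean square difference of centred log2 CPM. They were Exoc6, Gpr27, Ncam1, Rhou, Mcam and Ticam2, with differences between 0.15 and 0.17. Their log2 fold changes lay between 0.48 and 0.60, and 0 passed edgeR's quasi-likelihood test (adjusted p between 0.120 and 0.237). They were picked by these same libraries, on a profile higher in Ly6C-high cells, so their direction was set by the choice. Nothing is read from their fold changes or from that test. Of the marker genes themselves, F13a1 lay nearest to that mean profile, at 0.19, followed by Ccr2 at 0.27 and Ms4a6c at 0.37, while Csf1r lay at 0.50, Cx3cr1 at 0.58, Mpeg1 at 0.60 and Fn1 at 0.73.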

How the data were processed

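RNA libraries of 6 samples had been made with a Kapa mRNA kit, per the labels' protocols, and the authors used kallisto and build GRCm39, per the submitters' processing notes. Its version, index and strand setting were not given in the sources used here. The deposited tables gave estimated counts, TPM and effective lengths for 117486 transcripts, per the file headers. Transcripts were joined by identifier to GENCODE M21 genes (99.04% matched, holding at least 99.747% of the estimated counts), and estimated counts were summed per gene and rounded. That annotation is on GRCm38, so the only coordinates given are those of the RefSeq promoter windows on GRCm38.p6.

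All 11406 genes kept by filterByExpr were fitted with edgeR 4.0.16 in R 4.3.3 (TMM, robust quasi-likelihood test, group as the only term), with Benjamini-Hochberg adjustment over all of them, and the step was tested on simulated data. Within groups, the chi-square per gene between libraries was 14.3 to 48.2, far above sampling noise, so none was counted as a copy. The alternatives were DESeq2 1.42.0, limma 3.58.1 voom, other scalings, filters and count summaries, a replicate block, and each library left out.

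The marker genes and all gene lists were chosen with earlier results of these data known. Named genes were the 8 markers, Ly6c1, Ly6c2 and Ly6g, the 2 most abundant and the 2 most changed tested genes of each list, genes past the threshold, and the 6 genes most like the markers. Those of lists of other cells are named in the text only where a result turns on them. Vcan, Nr4a1, Irf8, Cd180, Ms4a6b, Mgst1 and the genes at trace level or with no counts were named after their values were seen. Some items are not reported here. Intervals on counts cover counting error only.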

Additional observations from a re-analysis of the deposited data

How the results depend on the processing

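The direction of each of the 7 fitted marker genes was the same under every alternative that gave a value. With 1 library left out the log2 fold change ranged from -0.25 to -0.12 for Csf1r, -0.42 to -0.31 for Mpeg1, 0.45 to 0.87 for Ccr2, 2.04 to 2.65 for Cx3cr1, 0.48 to 1.09 for F13a1, 0.56 to 2.35 for Fn1 and 0.87 to 1.26 for Ms4a6c. The ranges were 0.68 to 1.00 for the summed CPM of the 6 genes at low level, -0.29 to -0.22 for that of all 8, and 0.49 to 0.86 for the median over the 8. Scaling by library size alone gave -0.29 for Csf1r, -0.46 for Mpeg1 and -0.36 for the summed CPM of all 8, which was -0.34 from deposited TPM against -0.25 as reported. On coding transcripts alone Fn1 did not pass the filter and has no value. The count of genes past the threshold, 4 as reported, was 61 with the replicate number as a block, 8 with library size alone, 439 with no filter, 126 with DESeq2, 2 with length-scaled TPM and 2 to 22 with 1 library left out, the 22 without Ly6C-low replicate 3. The same-numbered libraries deviated from their group means with correlations of 0.24, -0.04 and 0.24, so the numbers are not shown to pair them. Of the monocyte lists 1 gene was called with the block (Egr1), 7 with no filter, 2 with DESeq2, and 0 to 1 with 1 library left out (Rassf4, without Ly6C-low replicate 3). Library size alone moved the medians of the classical, non-classical and regulator lists to 0.05, -0.19 and -0.10, and length-scaled TPM that of the regulators to -0.12. With 1 library left out those of the non-classical list and the regulators ranged from -0.26 to 0.09 and from -0.13 to 0.06. The cause of these shifts was not tested. Depth limited Ly86 and Cx3cr1, each with under 30 counts in any library.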
